A study of Mus musculus with 6 samples.

Results

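Dhh, Ihh, Ptch1, Smo, Gli1, Gli2, Gli3, Hhip and Sufu, 9 genes of the hedgehog pathway, were read through all 22 probe sets that the probe table paired with 1 of these symbols alone. The probe sets were taken by name, but the genes were proposed with earlier results of these data known. They stand among 18193 genes and 34945 probe sets named in this way. The cells were GC1-Spg, an immortalized mouse line made from type B spermatogonia. Control cells received 100 nM of scrambled siRNA. The silenced cells received siRNA against mrhl, a noncoding RNA transcribed from within an intron of Phkb, also at 100 nM. At 44 h after transfection, RNA of 3 biological replicates per group was taken, labelled with biotin and run on 1-colour Affymetrix arrays, 1 for each replicate. All cultures were of 1 line and all had been transfected, so cells without siRNA were not part of the comparison. The probe table pairs no probe set with mrhl, so the labels were not checked against the level of the silenced RNA itself.

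Hedgehog proteins are secreted, lipid-modified ligands. Ihh directs cartilage and gut development, whereas Dhh is the ligand of the testis, made by Sertoli cells, and also by Schwann cells and endothelial cells. Ligand binding to the receptor Ptch1 relieves its inhibition of Smo, a 7-transmembrane protein that acts at the primary cilium. Active Smo frees the Gli transcription factors from Sufu, their cytoplasmic inhibitor. Gli1, Ptch1 and Hhip, a ligand-binding inhibitor at the cell surface, are themselves direct Gli targets, so their transcript levels are commonly read as a measure of pathway output. In the testis, Ptch1 is known from Leydig and peritubular cells, which receive Dhh from the tubules.

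The stretches upstream of the 2 ligand genes are shown because of the fold changes after mrhl siRNA. The brighter probe set of Dhh and the probe set of Ihh stood on opposite sides of 0, though neither passed the test described below. Each holds the 250 bases before the RefSeq transcript start in GRCm38.p6, 5′ to 3′ on the strand of the gene, which is the minus strand for both. Dhh is at chr15:98898541-98898790 and Ihh at chr1:74951673-74951922. Capitals mark each match, on either strand, of CCACCC, a short core of the sequence that Gli proteins bind, and of CCGCCC, the GC box core.
Dhh: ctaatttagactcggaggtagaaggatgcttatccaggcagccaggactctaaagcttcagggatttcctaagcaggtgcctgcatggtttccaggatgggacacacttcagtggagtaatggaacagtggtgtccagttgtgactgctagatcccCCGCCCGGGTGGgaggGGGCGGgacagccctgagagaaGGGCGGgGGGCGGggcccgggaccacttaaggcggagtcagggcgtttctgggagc
Ihh: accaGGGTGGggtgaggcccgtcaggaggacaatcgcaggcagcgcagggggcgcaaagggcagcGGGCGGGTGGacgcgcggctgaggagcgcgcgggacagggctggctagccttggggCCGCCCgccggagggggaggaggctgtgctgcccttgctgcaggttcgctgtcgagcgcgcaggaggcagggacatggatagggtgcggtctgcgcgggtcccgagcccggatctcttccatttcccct
The Dhh stretch held 1 match of CCACCC and 4 of CCGCCC, and its GC content was 59.6%. The Ihh stretch held 2 and 2, of which 1 pair overlapped in GGGCGGGTGG, and its GC content was 72.0%. Such windows were matched for 8 of the 9 genes. Over 32851 windows of the same length, CCACCC on either strand occurred in 28.1% and CCGCCC in 32.7%. The longer Gli consensus GACCACCCA occurred in 0 of the 8 windows and in 0.225% of all windows. A match describes letters only and shows no binding.

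Across the 6 arrays, the medians differed by at most 0.11 on the log2 scale. The probe set for the 3′ end of 18S ribosomal RNA, a control of the array, set the arrays apart: it stood at 2.99, 7.83 and 6.48 in scrambled siRNA replicates 1, 2 and 3 and at 3.57, 3.0 and 6.76 in mrhl siRNA replicates 1, 2 and 3. Log2 values are given in this order throughout. The labels state no pairing, but arrays of equal replicate number deviated together from their group means, least so for number 2 (r = 0.201). They were therefore read as pairs, a choice drawn from these same values. Differences within these pairs are given beside the group comparison. A probe set was tested if its mean over the 6 arrays reached 3.62, the 25th percentile of all probe sets, and a probe set below this level is not shown to be above background. Markers of several cell types were read on the same terms. Of 11 spermatogonial markers on the array, 8 reached the level, while the germ cell genes Ddx4 and Dazl and the spermatogonial factor gene Sohlh1 did not. Of 15 Sertoli cell markers 12 did, Sox9 and Wt1 among them but not Aard, Dmrt1 or Sox8. So did 5 of 6 Leydig, 7 of 7 peritubular myoid, 3 of 3 Schwann cell and 3 of 5 endothelial markers. Of all 18193 genes, each read through its brightest probe set, 14885 reached the level. The counts alone therefore do not set a cell type apart. In all of these lists 0 tested markers passed the test described next.

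The question was whether silencing of mrhl goes with other levels of hedgehog transcripts. After mrhl siRNA, Ihh, Smo, Gli2 and Sufu had positive and the brighter probe set of Dhh a negative fold change, none beyond the test. Of the 16 tested probe sets of the pathway, 0 passed an adjusted p of 0.05 (limma, smallest adjusted p = 0.965). Of all 33778 probe sets tested 0% passed, with 3.44% at an unadjusted p under 0.05, against 1 of the 16, that of Dhh. With the replicate number as a block, 0 of the 16 passed again (limma, smallest adjusted p = 0.487), as did 0% of all. In the blocked fit 4 of the 16 had an unadjusted p under 0.05, in Dhh, Ihh, Ptch1 and Gli2, against 10.1% of all probe sets. In the fit without the block, 12 of the 16 log2 fold changes were positive, against 43.8% of all probe sets, and their median was 0.208, against -0.0326 over all. Probe sets of 1 gene are not independent, and the 12 come from 7 of the genes. Read through the brightest tested probe set of each of the 8 tested genes, 5 fold changes were positive and 3, those of Dhh, Ptch1 and Gli3, negative. The number of arrays limits the precision, and the standard errors of the 16 log2 fold changes ran from 0.142 to 0.341.

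**Figure D1:**
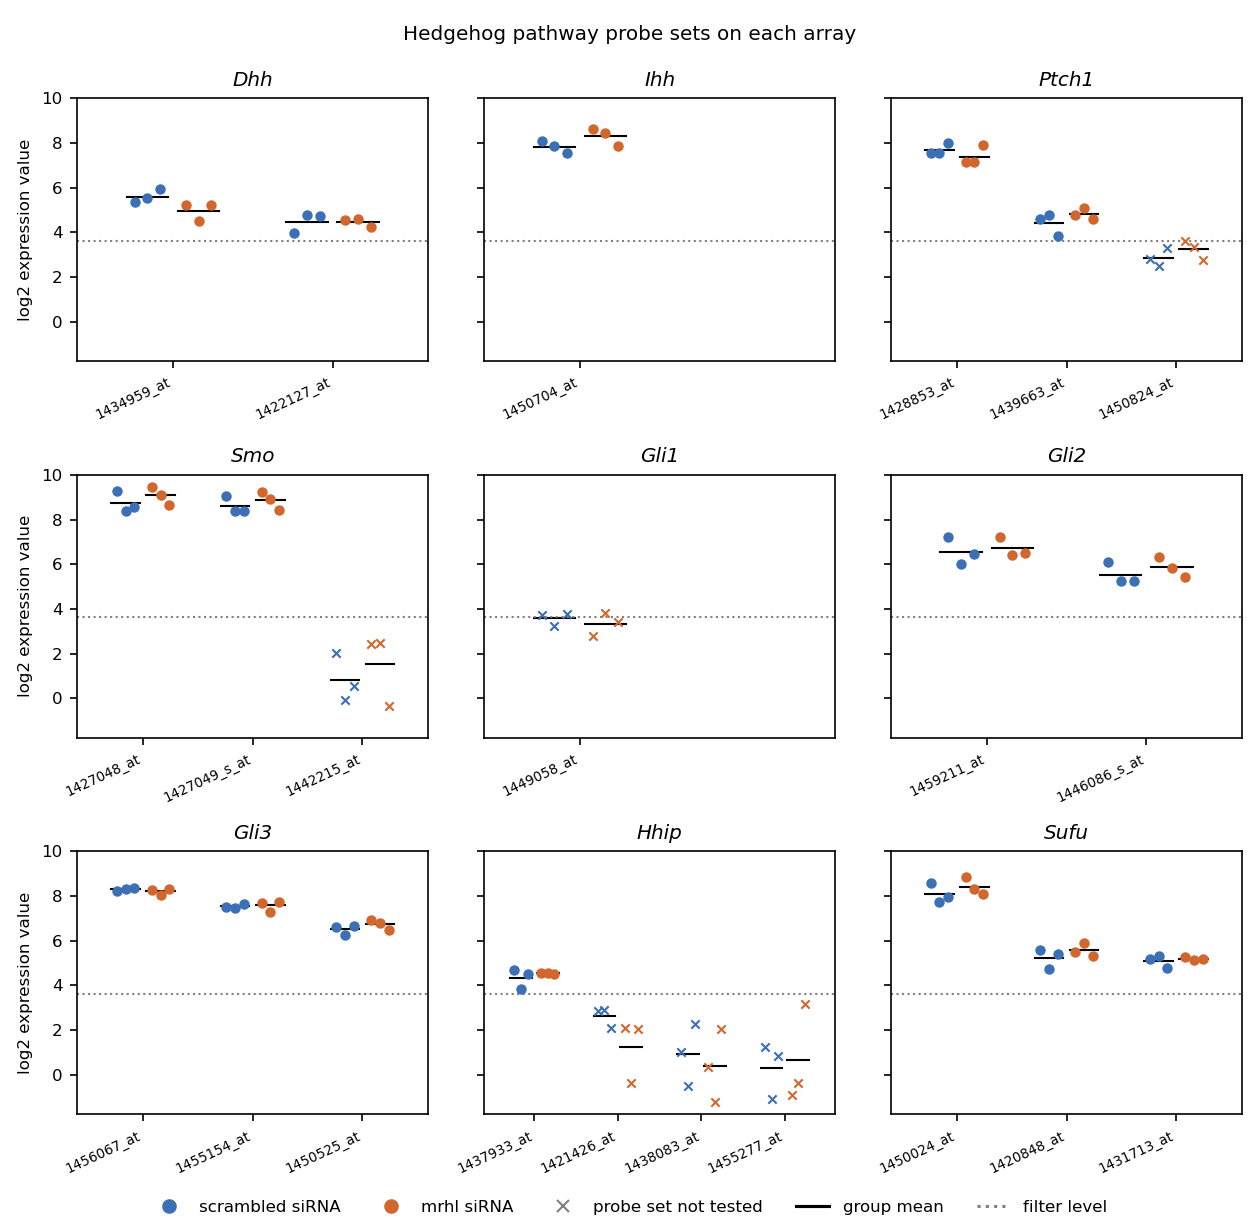
Log2 expression value (y axis) of every hedgehog pathway probe set (x axis) on each of the 6 arrays, with scrambled siRNA in blue and mrhl siRNA in orange, replicates 1 to 3 from left to right, and a bar at each group mean. Crosses mark the 6 probe sets whose mean lay under the dotted filter level of 3.62, among them the only probe set of Gli1 and 3 of the 4 of Hhip.

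Among the ligands, Dhh had 2 tested probe sets, and they differed. The brighter, 1434959_at, stood at 5.34, 5.53 and 5.94 after scrambled siRNA and at 5.21, 4.5 and 5.22 after mrhl siRNA. All 3 mrhl siRNA arrays lay below all 3 controls, a pattern found in 5.82% of all probe sets and in 1 of the 16, this one. The groups of the rest of the 16 overlapped. The share of all probe sets that were higher without overlap was not counted. On the log2 scale the difference was -0.63, with an SE of 0.252 and a 95% interval of -1.22 to -0.04. This did not pass (limma, adjusted p = 0.965). The differences within pairs were -0.14, -1.03 and -0.72, so most of the gap between the group means lay in pairs 2 and 3. The lowest value, 4.5 in mrhl siRNA replicate 2, weighed heavily, since without that array the log2 fold change was -0.39, and without both arrays of number 1 it was -0.87. The other probe set, 1422127_at, which is designed on the gene's RefSeq mRNA, stood at 3.98, 4.76 and 4.72 after scrambled siRNA and at 4.54, 4.6 and 4.26 after mrhl siRNA. Here the groups overlapped fully, with a log2 fold change of -0.02 (95% interval -0.57 to 0.54). The lower level of Dhh therefore rests on 1 of its 2 probe sets.

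Markers of cell types that make Dhh were set beside it. The mean log2 value of the 15 Sertoli markers ran from 5.97 to 6.14 in the controls and from 5.94 to 5.99 after mrhl siRNA. That of the 3 Schwann cell markers ran from 5.42 to 5.59 and from 5.28 to 5.54. The mean of the 5 endothelial markers was 3.76, 4.02 and 3.75 in the controls and 3.33, 2.99 and 3.7 after mrhl siRNA. The endothelial groups thus did not overlap, but their nearest values, 3.75 and 3.7, lay close together. Pecam1 and Vwf were under the filter level on average, where small differences in signal make large log2 differences. Of the 3 tested endothelial markers 0 passed, and how often such marker means separate was not examined. All cultures were of the same line, so these values are transcript levels and not counts of Sertoli, Schwann or endothelial cells. The part of these markers in the Dhh values was not tested. In bulk RNA, fewer cells with a transcript and less of it per cell cannot be told apart.

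Ihh was read through a single probe set, 1450704_at, designed on its RefSeq mRNA. It stood at 8.11, 7.85 and 7.56 after scrambled siRNA and at 8.64, 8.47 and 7.85 after mrhl siRNA. The groups met at 7.85, where scrambled siRNA replicate 2 and mrhl siRNA replicate 3 lay. The mean was 1.39-fold higher, a log2 difference of 0.48 with an SE of 0.248 and a 95% interval of -0.10 to 1.06, which did not pass (limma, adjusted p = 0.965). The value was 0.32 without mrhl siRNA replicate 1, 0.34 without scrambled siRNA replicate 3 and 0.72 without mrhl siRNA replicate 3. Within pairs the differences were 0.53, 0.61 and 0.29, all positive. With the block the standard error was 0.121 and the 95% interval 0.17 to 0.79, and the adjusted p was 0.487 (limma). The brighter probe set of Dhh and that of Ihh, ligands of the same receptor, thus had fold changes of opposite sign. The other Dhh probe set was near 0, at -0.02, and the difference between the ligands was not tested.

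Ptch1, the receptor, gave different answers by probe set. Its brightest, 1428853_at, stood at 7.55, 7.56 and 8.02 in the controls and at 7.13, 7.14 and 7.92 after mrhl siRNA. It was lower in 3 of 3 pairs, by differences of -0.42, -0.42 and -0.10, with a log2 fold change of -0.31 (95% interval -0.92 to 0.29). That value was -0.16, -0.18 and -0.19 without scrambled siRNA replicate 3, mrhl siRNA replicate 1 and mrhl siRNA replicate 2, and -0.58 without mrhl siRNA replicate 3. With the signal of 18S ribosomal RNA as a covariate it was -0.17. The arrays of number 3 were the highest of both groups. Probe set 1439663_at stood at 4.59, 4.79 and 3.85 and then at 4.76, 5.08 and 4.6, and it was higher in 3 of 3 pairs. Its log2 fold change was 0.40 (95% interval -0.22 to 1.02), and 0.12 without scrambled siRNA replicate 3. The probe set designed on the RefSeq mRNA, 1450824_at, lay under the filter level, at 2.82, 2.48 and 3.31 and then at 3.6, 3.35 and 2.77. These 3 probe sets therefore give no single direction for Ptch1.

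Smo, the signal transducer, was read by 2 bright probe sets that share their source sequence. The brighter, 1427048_at, stood at 9.29, 8.38 and 8.56 in the controls and at 9.47, 9.1 and 8.67 after mrhl siRNA. Its log2 fold change was 0.34 (95% interval -0.35 to 1.03), with pair differences of 0.18, 0.73 and 0.12. It moved with single arrays, to 0.15 without mrhl siRNA replicate 1, 0.16 without scrambled siRNA replicate 2, 0.55 without mrhl siRNA replicate 3 and 0.62 without scrambled siRNA replicate 1. The other, 1427049_s_at, had 0.25 (95% interval -0.37 to 0.88) with pair differences of 0.21, 0.49 and 0.05, and ran from 0.06 without mrhl siRNA replicate 1 to 0.47 without scrambled siRNA replicate 1. Both were higher after mrhl siRNA in 3 of 3 pairs, and neither passed (limma, adjusted p = 0.965 for each). The spread within the control group, an SD of 0.48 for the first, was larger than the difference. Another probe set, 1442215_at, lay under the filter level, between -0.34 and 2.49.

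Sufu, the inhibitor that holds Gli proteins in the cytoplasm, had 3 tested probe sets, all with positive fold changes, and 2 of them, 1450024_at and 1420848_at, share their source sequence. The brightest, 1450024_at, stood at 8.58, 7.74 and 7.97 in the controls and at 8.86, 8.31 and 8.08 after mrhl siRNA. Its log2 fold change was 0.32 (95% interval -0.34 to 0.98), and it was higher in 3 of 3 pairs. The value was 0.09 without mrhl siRNA replicate 1, 0.14 without scrambled siRNA replicate 2, 0.49 without mrhl siRNA replicate 3 and 0.56 without scrambled siRNA replicate 1. For 1420848_at the log2 fold change was 0.36 (95% interval -0.25 to 0.96), and it came from pair 2 alone, where the difference was 1.18, against -0.06 and -0.05. For 1431713_at it was 0.13 (95% interval -0.29 to 0.54), with pair differences of 0.11, -0.14 and 0.41. In pair 2 the control value of 1420848_at was low, at 4.73, and the mrhl siRNA value high, at 5.91. Its log2 fold change shrank but stayed positive without either array, at 0.11 without scrambled siRNA replicate 2 and 0.20 without mrhl siRNA replicate 2.

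Among the Gli factors, Gli2, the main activator, had 2 tested probe sets with the same source sequence. The first, 1459211_at, stood at 7.2, 6.01 and 6.44 in the controls and at 7.22, 6.42 and 6.52 after mrhl siRNA. Both arrays of number 1 were the highest of their groups, and the log2 fold change was 0.17 (95% interval -0.63 to 0.97). The second, 1446086_s_at, stood at 6.08, 5.26 and 5.26 and then at 6.34, 5.83 and 5.44. Its log2 fold change was 0.34 (95% interval -0.38 to 1.05), and with the block the interval was 0.01 to 0.67. Without the block the value fell to 0.10 when mrhl siRNA replicate 1 was left out and to 0.20 when scrambled siRNA replicate 2 or 3 was. It was 0.55 without mrhl siRNA replicate 3 and 0.61 without scrambled siRNA replicate 1. Each probe set was higher in 3 of 3 pairs, although the sign of 1459211_at turned when scrambled siRNA replicate 2 or mrhl siRNA replicate 1 was left out, giving -0.10 and -0.08.

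Gli3, which acts mainly as a processed repressor, varied little between arrays. Its brightest probe set, 1456067_at, stood at 8.23, 8.31 and 8.36 in the controls and at 8.28, 8.06 and 8.31 after mrhl siRNA. The log2 fold change was -0.09 with an SE of 0.142, the smallest of the 16, and a 95% interval of -0.42 to 0.25. The other 2, 1455154_at and 1450525_at, had 0.05 (95% interval -0.34 to 0.44) and 0.22 (95% interval -0.21 to 0.65). A doubling or halving, a log2 difference of 1 in either direction, lay outside the intervals of all 3 probe sets. Each interval still held smaller differences in either direction. A doubling or halving also lay outside the intervals of some probe sets of other genes, among them all tested ones of Sufu.

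Gli1, the target gene most used as a readout of hedgehog signalling, was not tested. Its only probe set, 1449058_at, stood at 3.74, 3.22 and 3.79 in the controls and at 2.77, 3.83 and 3.4 after mrhl siRNA, a mean of 3.46 just under the filter level. The groups overlapped, and pair differences of -0.96, 0.60 and -0.38 had no common sign. Hhip, the other inhibitor and target, had 1 tested probe set, 1437933_at, at 4.69, 3.83 and 4.52 and then at 4.55, 4.54 and 4.53. The log2 fold change was 0.19 (95% interval -0.35 to 0.73), and without the control value of 3.83 it was -0.07. The other 3 Hhip probe sets lay well under the filter level, with means over the arrays of 1.94, 0.66 and 0.48. One of them, 1421426_at, designed on the RefSeq mRNA, stood at 2.85, 2.92 and 2.11 and then at 2.08, -0.39 and 2.05, where small differences in signal make large log2 differences. Of the target genes, Gli1 thus had no tested probe set and Hhip 1.

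**Figure D2:**
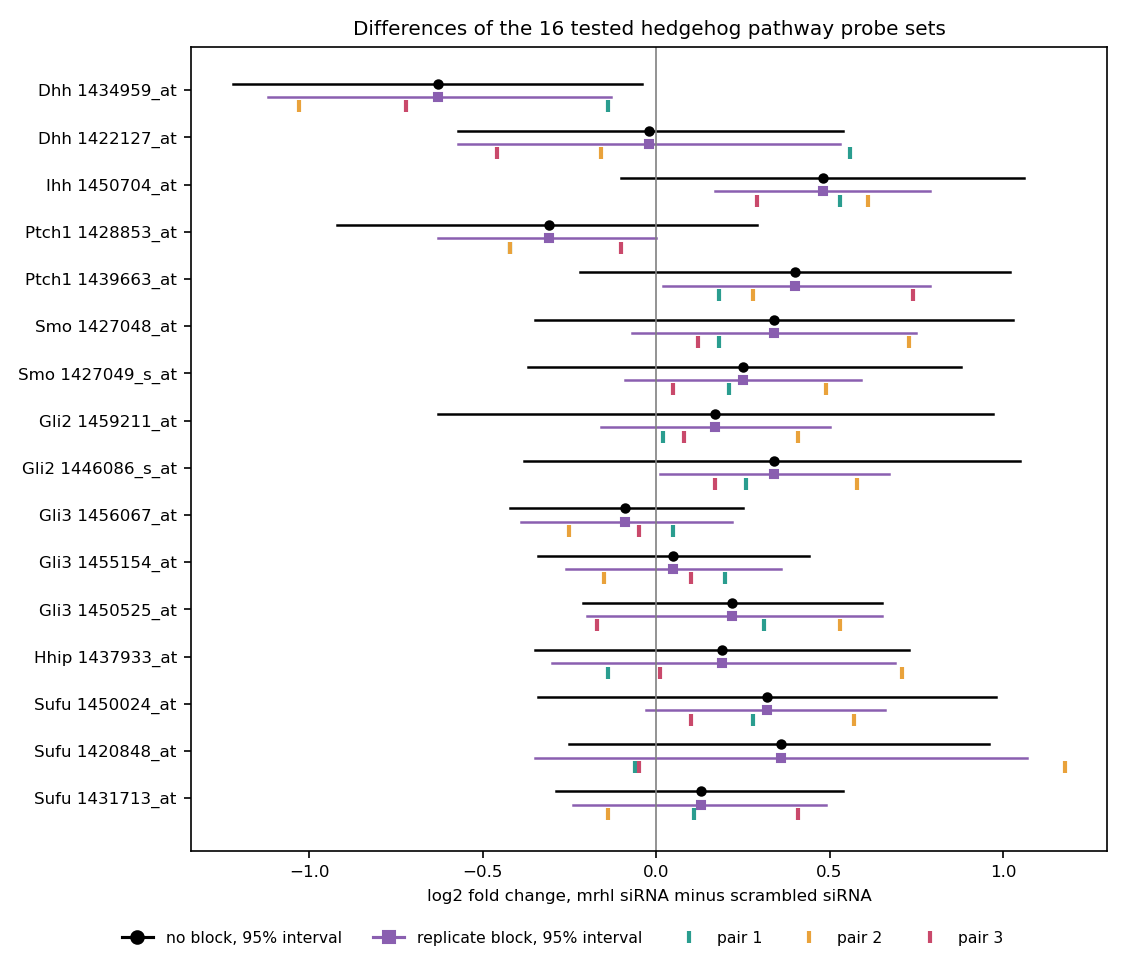
Log2 fold change, mrhl siRNA minus scrambled siRNA (x axis), of the 16 tested hedgehog pathway probe sets (y axis), with 95% intervals from the fit without a block (black) and with the replicate block (purple). Coloured ticks are the differences within pairs, and those of pairs 1 and 2 coincide at -0.42 for Ptch1 1428853_at. Black intervals include 0 for all but Dhh 1434959_at, at -1.22 to -0.04.

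In the 3 pairs, 7 of the 16 probe sets were higher after mrhl siRNA every time and 2 were lower every time. The 7 were those of Ihh, both tested ones of Smo and Gli2, 1439663_at of Ptch1 and 1450024_at of Sufu, and the 2 were the brighter ones of Dhh and Ptch1. Of all probe sets tested, 14.1% were higher in 3 of 3 pairs and 23.4% lower. Some probe sets of Smo, Gli2 and Sufu also moved together between arrays of 1 group. Among the controls, Smo 1427048_at, Gli2 1446086_s_at and Sufu 1450024_at were highest in replicate 1, by 0.73, 0.81 and 0.61 over the next array. After mrhl siRNA they were lowest in replicate 3. Smo 1427049_s_at followed, with a lead of 0.63, but other probe sets did not all do so. Gli2 1459211_at was lowest in mrhl siRNA replicate 2, at 6.42. Sufu 1431713_at was highest among the controls in replicate 2, at 5.3. Sufu 1420848_at was highest in control replicate 1, but by only 0.18.

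The 18S 3′ signal moved opposite to Smo 1427048_at, Gli2 1446086_s_at and Sufu 1450024_at. It was lowest on scrambled siRNA replicate 1 and mrhl siRNA replicates 1 and 2, at 3.57 or less, and on those 3 arrays Smo 1427048_at stood at 9.29, 9.47 and 9.1, above its values on the other 3. The same 3 arrays were the highest for Ihh, Gli2 1446086_s_at and Sufu 1450024_at, and also for Smo 1427049_s_at and Sufu 1420848_at. They were not for Gli2 1459211_at, where mrhl siRNA replicate 2, at 6.42, lay below both arrays of number 3. Nor were they for Sufu 1431713_at, highest on scrambled siRNA replicate 2 at 5.3. With the 18S signal as a covariate, a fit chosen after seeing the data, the log2 fold change was 0.10 (SE 0.172) for Smo 1427048_at, 0.11 (SE 0.204) for Gli2 1446086_s_at and 0.11 (SE 0.202) for Sufu 1450024_at. Without the covariate these were 0.34, 0.34 and 0.32. For Ihh it was 0.32 (SE 0.198) and for Dhh 1434959_at -0.51 (SE 0.243). In that fit 0 of the 16 passed (limma, adjusted p = 1.0 for each), and 0 had an unadjusted p under 0.05. Of all 33778 probe sets tested, 1615 had an unadjusted p under 0.05 there, so few would be looked for among 16. Only 1 of the 3 arrays with a low 18S signal was a control, so the signal and the siRNA are partly confounded. The 5′ and middle 18S probe sets were also lowest on these 3 arrays. In the middle one, scrambled siRNA replicate 1 stood at 4.47, near 4.92 in scrambled siRNA replicate 3. There mrhl siRNA replicates 1 and 2 stood at 3.05 and 3.04.

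**Figure D3:**
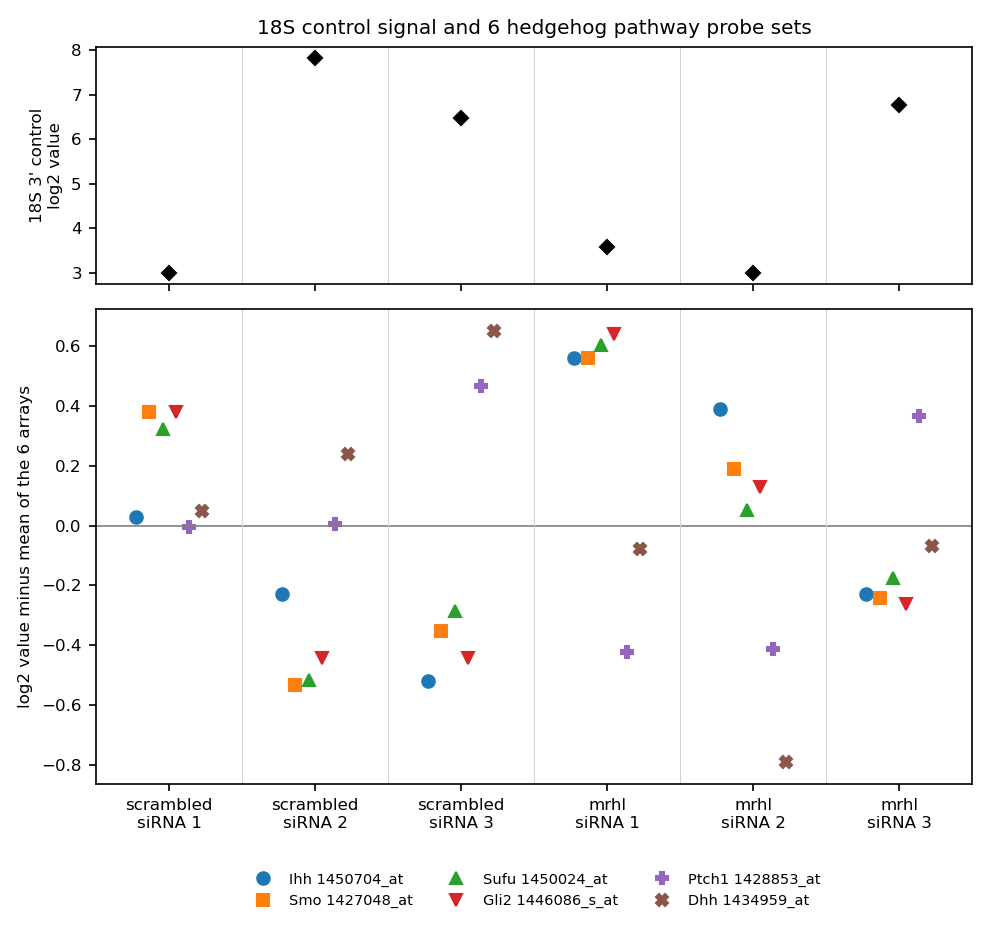
Log2 value of the 3′ probe set of 18S ribosomal RNA (upper panel) and log2 values of 6 hedgehog pathway probe sets minus their mean over the arrays (lower panel), for the 6 arrays named on the x axis. Smo 1427048_at, Sufu 1450024_at and the dimmer Gli2 1446086_s_at lie above their means on the 3 arrays whose 18S value is 3.57 or less. They lie below them on the other 3, and Dhh has its lowest value in mrhl siRNA replicate 2. The brighter Gli2 probe set, 1459211_at, is not drawn.

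Genes around the 9 were taken from 4 lists, each gene read through its brightest tested probe set, and 0 of 78 tested genes passed (limma, smallest adjusted p = 0.965), with 1 at an unadjusted p under 0.05. Their median log2 fold change was -0.06, and 31 were positive and 47 negative. Over all 14885 tested genes the median was -0.04, and 6264 were positive and 8621 negative. With the block 0 of the 78 passed, and 7 had an unadjusted p under 0.05 (limma, smallest adjusted p = 0.487). Of all 14885 tested genes, 423 had an unadjusted p under 0.05 without the block and 1344 with it.

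The list of ligand processing, release and co-receptors had 12 tested genes, 6 positive and 6 negative, with a median of 0.01. Cdon, a co-receptor that helps Ptch1 bind ligand, stood at 8.98, 8.67 and 8.94 in the controls and at 8.55, 8.39 and 8.77 after mrhl siRNA, a log2 fold change of -0.30 (SE 0.167). A dimmer Cdon probe set had 0.20 (SE 0.217). Gas1, a lipid-anchored co-receptor, stood at 11.08, 10.89 and 10.62 and then at 11.22, 11.07 and 11.16, a log2 fold change of 0.29 (SE 0.164). Its other probe sets had 0.71 (SE 0.289) and 0.53 (SE 0.342), so all 3 of Gas1 were positive. The one with 0.71 stood at 10.62, 9.73 and 9.55 and then at 10.9, 10.66 and 10.48, and it did not pass (limma, adjusted p = 0.965, and 0.487 with the block). With the 18S covariate its log2 fold change was 0.50 (SE 0.212).

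The list of ciliary transport and Smo regulators had 23 tested genes, 9 positive and 14 negative, with a median of -0.09. Ift81, a subunit of the intraflagellar transport complex that carries tubulin into cilia, stood at 8.1, 8.03 and 8.39 in the controls and at 7.86, 7.6 and 7.94 after mrhl siRNA. The log2 fold change was -0.37 (SE 0.169), and its other probe sets had -0.39 (SE 0.183) and -0.12 (SE 0.179). Its groups did not overlap, a pattern found in 5.82% of all probe sets in this direction. Ift81 was named for its small p, which makes such a separation likely. Efcab7, which anchors the Evc complex that relays the signal of Smo, had -0.37 (SE 0.194) and was lower in 3 of 3 pairs. The list of Gli processing factors, kinases and ubiquitin ligases had 24 tested genes, 9 positive and 15 negative, with a median of -0.05. Numb, which directs Gli1 to the ubiquitin ligase Itch, stood at 8.35, 8.4 and 8.65 and then at 8.12, 8.11 and 8.31, a log2 fold change of -0.29 (SE 0.151). The kinase gene Dyrk1a had -0.26 (SE 0.148), and its other probe sets had -0.45 (SE 0.188) and -0.06 (SE 0.181).

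The list of genes known to respond to hedgehog signalling had 19 tested genes, 7 positive and 12 negative, with a median of -0.07. Bcl2, the apoptosis inhibitor, stood at 8.18, 8.31 and 8.57 in the controls and at 7.4, 7.63 and 8.12 after mrhl siRNA. All mrhl siRNA arrays lay below all controls, a pattern found in 5.82% of all probe sets. Bcl2 was named for its small p, which makes such a separation likely. The log2 fold change of Bcl2 was -0.63 (SE 0.218) and did not pass (limma, adjusted p = 0.965, and 0.487 with the block). With the 18S covariate it was -0.51 (SE 0.192). The 4 dimmer Bcl2 probe sets had 0.11, -0.25, 0.07 and 0.01, and the one with -0.25 was lower in 3 of 3 pairs. Nkx2-2, a homeobox gene of the ventral neural tube, had -0.69 (SE 0.379) at values of 4.61, 3.56 and 4.69 and then 4.18, 3.51 and 3.08, where its mean after mrhl siRNA, 3.59, lay under the filter level. Many of these response genes are driven by other pathways too.

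**Figure D4:**
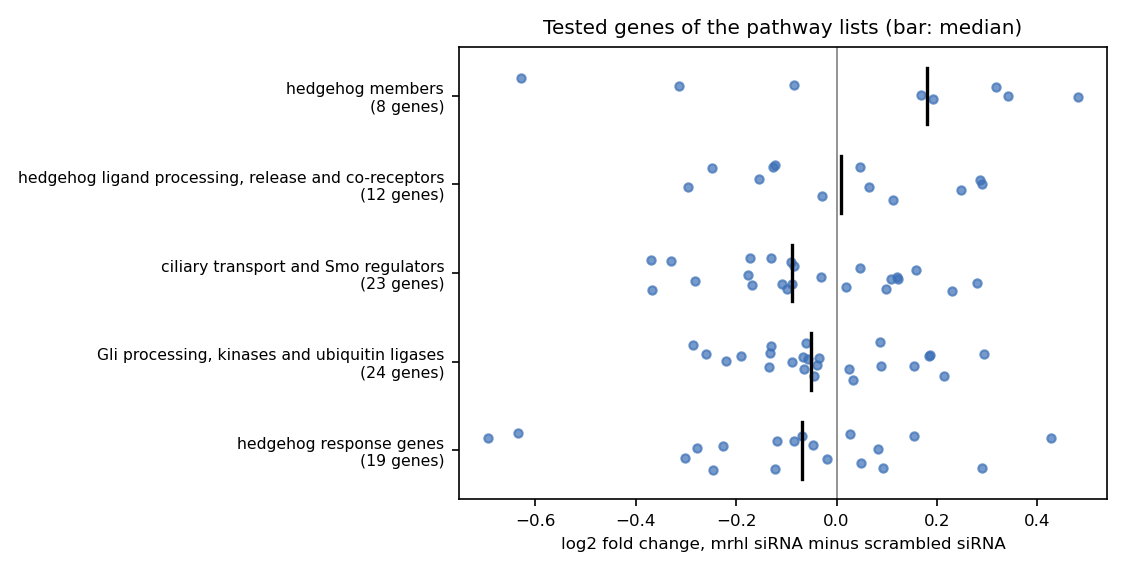
Log2 fold change, mrhl siRNA minus scrambled siRNA (x axis), of each tested gene of 5 lists (y axis), read through its brightest probe set, with a bar at the list's median. The top row holds the 8 of the 9 hedgehog genes that were tested, with a median of 0.18, and the medians of the other lists run from -0.09 to 0.01.

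The genes whose values over the 6 arrays were most like those of Dhh 1434959_at were Fastkd3, Specc1l and Prr14l, with Pearson correlations of 0.997, 0.99 and 0.987. With 6 arrays a high correlation is common: 381 of 13782 genes compared reached 0.9. The 3 genes had log2 fold changes of -0.17, -0.20 and -0.07, smaller than that of Dhh, and none passed (limma, adjusted p = 0.965 for Fastkd3 and Specc1l and 0.973 for Prr14l). Fastkd3 stood at 6.54, 6.61 and 6.71 in the controls and at 6.5, 6.32 and 6.53 after mrhl siRNA. Its lowest value lay on the same array as that of Dhh, a likeness that follows from its choice by correlation.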

How the data were processed

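Each array came from 1 culture, and groups and replicate numbers follow the sample titles. The deposited values are log2 expression values per probe set, a scale read from their range. GCOS and PLIER are named in the submitters' processing notes, with settings and normalization not given in the sources used here. Of 45101 rows 64 were controls. Probe sets with a mean under the 25th percentile, 3.62, were not tested, which left 33778 of 45037.

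Differences, mrhl siRNA minus scrambled siRNA, were fitted with limma 3.58.1 under R 4.3.3, and p-values were adjusted by Benjamini-Hochberg across the whole table, at 0.05. On simulated arrays the fitted differences followed those put in, but without the block few of the smaller ones passed, and with it some unchanged probe sets passed too. The p-values measure the spread between these samples.

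Arrays of equal replicate number deviated together from their group means (r = 0.534, 0.201 and 0.567; other pairs -0.518 to 0.0684), so the numbers were read as pairs. The labels state no such block, so the pairing and the blocked fit rest on the tested values themselves.

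Every member probe set is given. From each other list the 2 genes with the smallest p are named, since none passed, and the 3 genes most like Dhh were chosen by correlation, leaving out clone-type symbols. Members and lists were chosen with earlier results of these data known. Upstream stretches are RefSeq's, matched by symbol. Alternatives changed the normalization, filter, variance model, an offset of 16, block, array weights or arrays, and an 18S covariate was added after seeing the data. Figures used matplotlib 3.10.9.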

Additional observations from a re-analysis of the deposited data

How the results depend on the processing

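Of the 16 tested hedgehog probe sets, 0 passed under any of the 17 alternatives, and the same holds for the other pathway genes (limma, adjusted p from 0.232 to 1.0 for the 16). Over all probe sets, 2 passed with the replicate block and a trended, robust variance, neither of them a hedgehog probe set, and 0 in each other setting. The replicate block changed no call. The sign held in 254 of 268 refitted fold changes, and 11 of the 16 probe sets never changed sign. The filter, block and variance model alternatives leave a fold change as it is. Their refits are counted in the 268 although they could not change a sign. Dhh 1434959_at ran from -0.76 to -0.39 with single arrays left out and was -0.87 without both arrays of number 1. Signs turned for Dhh 1422127_at under quantile normalization (0.0020) and the 18S covariate (0.07), for Gli2 1459211_at under the 18S covariate (-0.05) and for Gli3 1455154_at with array weights (-0.0067) and without both arrays of number 1 (-0.03); the cause was not tested. With single arrays left out, Dhh 1422127_at ran from -0.27 to 0.12, Gli2 1459211_at from -0.10 to 0.49, Gli3 1455154_at from -0.03 to 0.19, Hhip 1437933_at from -0.07 to 0.36 and Sufu 1431713_at from -0.03 to 0.24. Probe sets near or under 3.62, Gli1 among them, are limited by their signal.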
